A study of Mus musculus with 6 samples.

Results

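The genes described here are 45 genes of DNA replication and S phase, chosen by symbol from the 48709 genes of the count table. They were measured by RNA sequencing of gingiva, the mucosa around the teeth, from 12-week-old C57BL/6 mice. The groups were mice that lack Plg (Plg KO, 3 libraries) and their wild-type littermates (Plg WT, 3 libraries). Plg encodes plasminogen, the precursor of the fibrin-dissolving protease plasmin, and the series concerns fibrin and neutrophils at mucosal surfaces. The sources used here do not give the allele behind the Plg KO label, any pooling of animals or the hour of sampling.

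Before a cell divides it copies its genome once. In G1, the origin recognition complex, Cdc6 and Cdt1 load the Mcm helicase onto origins, a step called licensing. Cyclin E and its kinase then act with the E2F transcription factors to start S phase, in which Cdc45 and the GINS complex activate the helicase and polymerases copy the strands. Ribonucleotide reductase and the thymidylate enzymes supply the nucleotides, and histone chaperones rebuild chromatin behind the fork. In stratified oral epithelium, cell division takes place mainly in the basal layers. Transcripts of these genes rise and fall with the cell cycle, and in bulk tissue more cells in S phase and more RNA per such cell cannot be told apart.

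Total gene counts ran from 26183389 to 36429150 per library, so that 3 counts, the upper limit for a gene listed at 0, equal 0.0824 to 0.115 CPM, the unit used here for TMM-normalized counts scaled to library size. Plg itself had 2 counts over the Plg KO libraries and 2 over the Plg WT libraries, so its level gives no check of the labels. The tissue label was checked with 7 basal and 6 suprabasal epithelial marker genes. They summed to 16061 to 18780 CPM (basal) and 26210 to 33015 CPM (suprabasal) in the Plg KO libraries. In the Plg WT libraries they summed to 17832 to 19507 CPM and 23952 to 31925 CPM. Of the basal markers 2 of 7 had a positive log2 change (median -0.06), and of the suprabasal markers 1 of 6 (median -0.32). Neutrophil markers summed to 174.6 to 532.6 CPM in Plg KO and 38.6 to 72.3 CPM in Plg WT, and 6 of 6 were higher at an unadjusted p under 0.05, with 2 called (Clec4e and Mmp9). Markers of B and plasma cells summed to 1.55 to 14.8 CPM in Plg KO and 16.1 to 56.6 CPM in Plg WT, with 3 of 5 lower at an unadjusted p under 0.05 and 0 called (adjusted). Of 6 salivary gland markers 4 were tested, since Prol1 was at 0 in every library and Mucl2 at 0 to 1 counts. The 4 tested summed to 931.6 to 1181 CPM in Plg KO and 187.2 to 1123 CPM in Plg WT. All 4 had a positive log2 change (median 0.83), with 0 higher at an unadjusted p under 0.05. Skeletal muscle markers summed to 2078 to 9722 CPM in Plg KO, lowest in Plg KO 1, and 4893 to 9272 CPM in Plg WT. Of the fibroblast markers 0 of 5 had a positive log2 change and 2 of 5 were lower at an unadjusted p under 0.05 (median -0.47), and they summed to 961.6 to 1904 CPM in Plg KO and 1535 to 2780 CPM in Plg WT. Of the macrophage markers 1 of 5 was lower on that rule (median 0.05), and of the T cell markers tested 0 of 5 were lower on it and 0 of 5 had a positive change (median -0.26). Endothelial markers summed to 46.1 to 68.0 CPM in Plg KO and 56.4 to 74.8 CPM in Plg WT, and 1 of 5 had a positive change (median -0.18). The part of all these cells in the results below was not tested. Xist was at 10 counts or fewer in Plg KO 1 and Plg WT 3 and at 917 to 1129 counts in the other 4 libraries, so each group held at least 2 animals. The labels do not say which libraries came from separate animals, so a p-value here weighs a difference against the spread of these libraries alone, which may be technical.

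All 45 genes passed the filter on low counts and were tested. Of them, 1 was called higher in gingiva without Plg. It was Asf1b, a chaperone that hands histones H3 and H4 to newly copied DNA, which was 2.09-fold higher in Plg KO, a call that leaving out any 1 of the Plg KO libraries ended. In edgeR, a quasi-likelihood test adjusted over 17757 genes by the Benjamini-Hochberg method called a gene at an adjusted p under 0.05. By this rule 1 of 45 members was called higher (2.22%), against 0.191% of all genes tested, and 0 were called lower, against 0.0451%. No member was lower at an unadjusted p under 0.05, against 4.27% of all genes, and DESeq2 and limma-voom also called 0 lower. Without Plg WT 1, 1 member was lower at an unadjusted p under 0.05. At an unadjusted p under 0.05, 13 of 45 were higher (28.9%), against 4.97% of all genes. There were 8 without Plg KO 1 (against 4.95% of all genes) and 8 without Plg KO 2 (against 3.45%). In 13 of 45 the 3 Plg KO libraries lay above the 3 Plg WT libraries (28.9%), against 7.51% of all genes, and in 0 they lay below, against 7.18%. The log2 change was positive for 36 of 45 members (80.0%), against 49.2% of all genes, and negative for 9, against 50.8% of all genes. Its median was 0.17, against -0.00 for all genes. Errors after ± are SE for log2 values and SD for CPM, with 3 libraries per group.

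**Figure D1:**
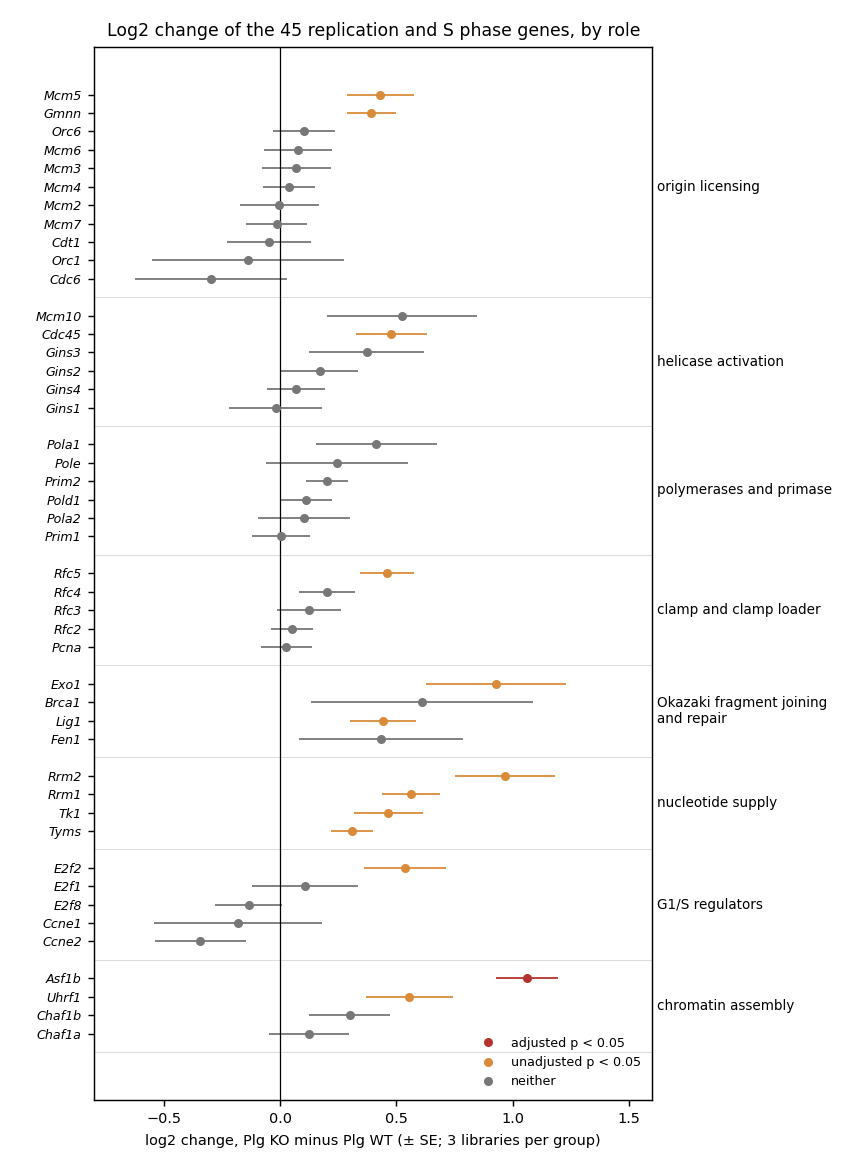
Log2 change of each of the 45 genes (x axis, Plg KO minus Plg WT, with SE as bars, 3 libraries per group), grouped by role, with colours for the adjusted and the unadjusted p. The 4 genes of nucleotide supply lie between 0.31 and 0.97, whereas 9 of the 11 licensing genes lie between -0.30 and 0.10.

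By role, all 4 genes of nucleotide supply, 2 of 4 of Okazaki fragment joining and repair and 2 of 4 of chromatin assembly were higher at an unadjusted p under 0.05, against 4.97% of all genes. The same held for 2 of 11 licensing genes, 1 of 6 of helicase activation, 0 of 6 polymerase and primase genes, 1 of 5 clamp and clamp loader genes and 1 of 5 G1/S regulators. Median log2 changes were 0.53 for Okazaki fragment joining and repair, 0.51 for nucleotide supply, 0.43 for chromatin assembly and 0.27 for helicase activation. They were 0.16 for polymerases and primase, 0.12 for the clamp and its loader, 0.04 for licensing and -0.14 for the G1/S regulators. The differences between role groups were not tested.

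Promoter sequences are shown for 4 members, the called gene Asf1b, the ribonucleotide reductase genes Rrm2 and Rrm1, and Mcm3, a helicase subunit with a log2 change near 0. They are RefSeq windows on GRCm38.p6 from 250 bases before to 50 after the start, written along the gene's strand. The windows lie at chr8:83955444-83955743 (plus strand), chr12:24708004-24708303 (plus strand), chr7:102441445-102441744 (plus strand) and chr1:20820263-20820562 (minus strand). Capitals mark the letters TTCCCGC and TTGGCGC, cores of sites for E2F factors, which are known to drive genes of the G1/S transition, the CCAAT box, and TTTGAA, the core of an element known from genes of late cell cycle, all on both strands.
Asf1b: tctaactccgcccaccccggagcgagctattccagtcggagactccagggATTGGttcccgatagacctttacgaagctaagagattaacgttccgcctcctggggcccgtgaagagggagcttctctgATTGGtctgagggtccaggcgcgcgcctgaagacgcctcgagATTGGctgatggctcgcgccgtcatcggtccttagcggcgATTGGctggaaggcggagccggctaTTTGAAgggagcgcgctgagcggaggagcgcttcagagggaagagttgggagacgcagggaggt
Rrm2: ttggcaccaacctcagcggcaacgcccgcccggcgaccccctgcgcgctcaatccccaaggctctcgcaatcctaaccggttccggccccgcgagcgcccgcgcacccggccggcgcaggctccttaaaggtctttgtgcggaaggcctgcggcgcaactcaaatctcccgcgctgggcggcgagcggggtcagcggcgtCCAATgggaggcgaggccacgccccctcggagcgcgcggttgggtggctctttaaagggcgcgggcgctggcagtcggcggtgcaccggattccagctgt
Rrm1: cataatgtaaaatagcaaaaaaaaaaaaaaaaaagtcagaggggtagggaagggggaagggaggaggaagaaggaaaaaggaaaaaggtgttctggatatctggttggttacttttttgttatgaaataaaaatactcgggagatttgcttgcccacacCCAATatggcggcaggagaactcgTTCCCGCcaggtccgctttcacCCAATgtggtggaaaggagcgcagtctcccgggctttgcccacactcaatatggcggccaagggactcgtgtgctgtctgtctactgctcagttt
Mcm3: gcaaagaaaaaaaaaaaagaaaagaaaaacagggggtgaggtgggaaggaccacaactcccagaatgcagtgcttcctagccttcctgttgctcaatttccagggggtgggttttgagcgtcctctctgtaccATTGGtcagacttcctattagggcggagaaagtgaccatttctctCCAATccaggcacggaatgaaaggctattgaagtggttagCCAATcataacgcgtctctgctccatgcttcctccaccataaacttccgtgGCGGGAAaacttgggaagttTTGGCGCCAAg

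The Asf1b window holds CCAAT 4 times, each on the reverse strand, and TTTGAA once, centred 11 bases before the start, and neither E2F-type core. Rrm2 holds CCAAT once and Rrm1 holds CCAAT at 2 places with TTCCCGC once. In Mcm3, TTGGCGC on the forward strand overlaps its own match on the reverse strand, and TTCCCGC and CCAAT are present as well. Of the 45 members, 35 had a window in the table, and the other 10 were Rfc2, Gins1, Gmnn, Gins2, Pole, Ccne2, Exo1, Gins4, Mcm4 and Prim2. An E2F-type core was present for 20 of these 35 (57.1%), against 7.79% of the 27025 genes in the table. TTCCCGC was present for 40.0% and TTGGCGC for 28.6%, against 5.29% and 2.85% of genes. CCAAT was present for 62.9%, against 41.1%, and TTTGAA for 7 of 35 (20%), against 20.2%. The median GC content was 60.0% in member windows and 52.7% in all windows. The 20 members with an E2F-type core had a median log2 change of 0.16, and the 15 without one 0.31. The 7 members with TTTGAA (Asf1b, Cdc45, E2f2, E2f8, Fen1, Gins3 and Mcm2) had a median of 0.43, and the 28 without it 0.12. The middle of the 7 values was that of Fen1 (0.43 ± 0.35), between Gins3 (0.37) and Cdc45 (0.48). Its value is uncertain, since an antisense gene covers 78.8% of its exonic bases. The motif counts describe letters in a window, and no difference between members with and without a motif was tested.

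Among genes that rebuild chromatin, Asf1b (ENSMUSG00000005470, GRCm38 chromosome 8, 83955507 to 83970197) had 17.3, 16.4 and 14.0 CPM in the Plg KO libraries and 8.19, 7.25 and 7.40 CPM in the Plg WT libraries. Every Plg KO library lay above every Plg WT library, and the lowest Plg KO value was in Plg KO 3. The means were 15.9 ± 1.70 CPM in Plg KO and 7.61 ± 0.505 CPM in Plg WT (SD, n = 3 each). The log2 change was 1.06 ± 0.13 (SE; edgeR adjusted p = 0.0364), with a 95% interval of 0.75 to 1.37. The call was lost without Plg KO 1, 2 or 3 (adjusted p = 0.0859, 0.191 and 0.0727 in edgeR) and without Plg WT 2 or 3 (adjusted p = 0.252 and 0.138), and held without Plg WT 1 (adjusted p = 0.0375). In these fits the log2 change ran from 0.99 to 1.15.

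Uhrf1, which brings the maintenance methyltransferase to newly copied DNA, had 14.8, 14.6 and 10.5 CPM in the Plg KO libraries and 7.78, 8.60 and 10.7 CPM in the Plg WT libraries. The groups overlapped, since Plg KO 3 fell just below Plg WT 3, and the log2 difference was 0.56 ± 0.19 (edgeR adjusted p = 0.392). Chaf1a and Chaf1b are subunits of chromatin assembly factor 1, which deposits histones at the fork. Chaf1a had 10.4, 11.1 and 12.5 CPM in the Plg KO libraries and 8.32, 10.5 and 12.4 CPM in the Plg WT libraries, with a log2 difference of 0.12 ± 0.17. Chaf1b had a difference of 0.30 ± 0.18, from means of 8.50 ± 1.68 CPM in Plg KO and 6.91 ± 0.171 CPM in Plg WT. Of the exonic bases of Chaf1a, 52.5% overlap exons of Ubxn6 on the opposite strand, so its counts may hold reads of that gene.

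The genes of nucleotide supply were the role group in which every member had Plg KO libraries above all Plg WT libraries. None of the 4 was called by edgeR over all genes, and 4 of 4 had an unadjusted p under 0.05. DESeq2 called Rrm2 (adjusted p = 0.00488) and Rrm1 (adjusted p = 0.0274), and limma-voom called none of the 4. Rrm2 (ENSMUSG00000020649, GRCm38 chromosome 12, 24708241 to 24714146) encodes the small subunit of ribonucleotide reductase, which is made in S phase. It had 80.9, 69.1 and 53.2 CPM in the Plg KO libraries and 26.0, 43.2 and 34.8 CPM in the Plg WT libraries. The lowest Plg KO library, Plg KO 3, exceeded the highest Plg WT library, Plg WT 2, and Plg WT 1 was the lowest of all. Its log2 difference was 0.97 ± 0.22 (edgeR adjusted p = 0.187, 95% interval 0.46 to 1.47). Rrm1 (ENSMUSG00000030978, GRCm38 chromosome 7, 102441695 to 102469771), the large subunit, had 53.0, 50.6 and 39.7 CPM in the Plg KO libraries and 31.0, 32.0 and 34.1 CPM in the Plg WT libraries. Here too Plg KO 3 was the lowest of its group, and the log2 difference was 0.56 ± 0.13 (edgeR adjusted p = 0.187).

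Tyms, which makes thymidylate, had 92.3, 106 and 89.9 CPM in the Plg KO libraries and 76.5, 77.8 and 78.5 CPM in the Plg WT libraries. The Plg WT libraries were nearly equal and all Plg KO libraries lay above them, with a log2 difference of 0.31 ± 0.09 (edgeR adjusted p = 0.321). Tk1, the thymidine kinase of dividing cells, averaged 38.5 ± 5.47 CPM in Plg KO and 27.9 ± 4.06 CPM in Plg WT (SD, n = 3 each), a difference of 0.47 ± 0.15 (edgeR adjusted p = 0.361).

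**Figure D2:**
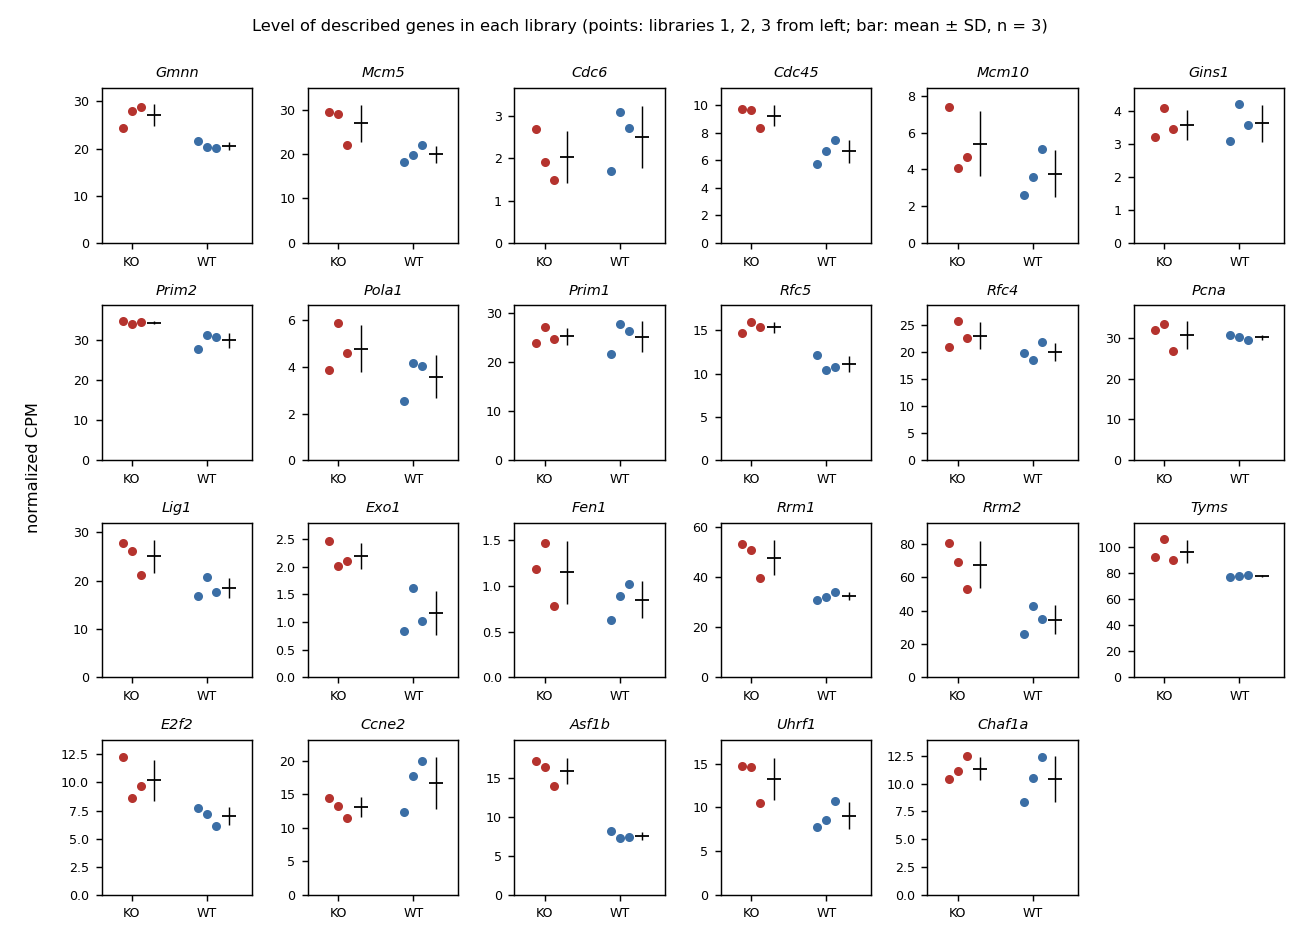
Normalized CPM (y axis, from 0) of 23 members in each Plg KO and Plg WT library, with the mean and SD (n = 3) beside the points. Asf1b, Rrm2, Rrm1 and Tyms have Plg KO points above all Plg WT points, whereas those of Pcna, Prim1 and Gins1 overlap.

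Of the 11 licensing genes, Gmnn and Mcm5 were higher at an unadjusted p under 0.05. Gmnn encodes geminin, which binds Cdt1 and blocks a further round of licensing, and had 24.4, 28.0 and 28.8 CPM in the Plg KO libraries and 21.5, 20.2 and 20.02 CPM in the Plg WT libraries. The groups did not overlap, and the log2 difference was 0.39 ± 0.11 (edgeR adjusted p = 0.269). Cdt1, the target of geminin, had a difference of -0.05 ± 0.18 with a 95% interval of -0.48 to 0.38. Mcm5, a helicase subunit, had 29.6, 29.1 and 22.2 CPM in the Plg KO libraries and 18.2, 19.7 and 21.9 CPM in the Plg WT libraries. The Plg KO 3 library was only just above Plg WT 3, and the difference was 0.43 ± 0.14 (edgeR adjusted p = 0.382).

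Of the 6 helicase subunits Mcm2 to Mcm7, the other 5 had 95% intervals that hold 0. Differences (log2) were -0.00 ± 0.17 for Mcm2, 0.07 ± 0.15 for Mcm3, 0.04 ± 0.11 for Mcm4, 0.08 ± 0.15 for Mcm6 and -0.02 ± 0.13 for Mcm7. Their intervals were -0.40 to 0.40 for Mcm2, -0.28 to 0.41 for Mcm3, -0.23 to 0.30 for Mcm4, -0.27 to 0.42 for Mcm6 and -0.33 to 0.29 for Mcm7. Cdc6, which loads the helicase with the origin recognition complex, had 2.70, 1.90 and 1.48 CPM in the Plg KO libraries and 1.69, 3.11 and 2.72 CPM in the Plg WT libraries. The groups overlapped, with the lowest value in Plg KO 3, and the difference was -0.30 ± 0.33 (edgeR adjusted p = 0.853). It was -0.57 without Plg KO 1 and -0.52 without Plg WT 1, but -0.11 without Plg KO 3 and -0.12 without Plg WT 2. Subunits of that complex had differences of -0.14 ± 0.41 (Orc1, at means of 0.905 ± 0.110 CPM in Plg KO and 1.004 ± 0.459 CPM in Plg WT) and 0.10 ± 0.13 (Orc6).

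Genes that activate the helicase or travel with it had a wider range. Cdc45, part of the active helicase, had 9.72, 9.67 and 8.38 CPM in the Plg KO libraries and 5.76, 6.71 and 7.46 CPM in the Plg WT libraries. All Plg KO libraries exceeded all Plg WT libraries, with a log2 difference of 0.48 ± 0.15 (edgeR adjusted p = 0.365). Mcm10, which is needed for the helicase to start, had 7.42, 4.08 and 4.71 CPM in the Plg KO libraries and 2.59, 3.61 and 5.13 CPM in the Plg WT libraries. Plg KO 1 stood above the rest, the other values overlapped, and the difference was 0.52 ± 0.32. It was 0.22 without Plg KO 1, 0.31 without Plg WT 1 and 0.81 without Plg WT 3. Within the 4-subunit GINS complex, Gins3 had a difference of 0.37 ± 0.25, Gins2 of 0.17 ± 0.17, Gins4 of 0.07 ± 0.12 and Gins1 of -0.02 ± 0.20. Gins1 had 3.21, 4.08 and 3.45 CPM in the Plg KO libraries and 3.08, 4.21 and 3.59 CPM in the Plg WT libraries, with overlapping groups. Exons of Gse1 on the opposite strand overlap 67.3% of the exonic bases of Gins2, so its counts may hold reads of Gse1.

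No polymerase or primase gene had an unadjusted p under 0.05. Prim2, the large subunit of primase, had 34.7, 33.9 and 34.5 CPM in the Plg KO libraries and 27.8, 31.2 and 30.7 CPM in the Plg WT libraries. The Plg KO libraries were close together and all above Plg WT, with a log2 difference of 0.20 ± 0.09 (edgeR adjusted p = 0.563). Prim1, the catalytic primase subunit, had 23.8, 27.0 and 24.7 CPM in the Plg KO libraries and 21.5, 27.6 and 26.2 CPM in the Plg WT libraries. Its groups overlapped throughout, and the 95% interval of the difference was -0.29 to 0.29. Pola1, the catalytic subunit of polymerase alpha, had 3.86, 5.87 and 4.59 CPM in the Plg KO libraries and 2.54, 4.18 and 4.04 CPM in the Plg WT libraries, with overlapping groups and a difference of 0.41 ± 0.26, which was 0.24 without Plg KO 2 and 0.21 without Plg WT 1. Pola2, its partner, had 0.10 ± 0.20, and the leading-strand and lagging-strand polymerases Pole and Pold1 had 0.24 ± 0.30 and 0.11 ± 0.11.

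The sliding clamp Pcna, which tethers polymerases to DNA, had 32.0, 33.4 and 26.8 CPM in the Plg KO libraries and 30.9, 30.2 and 29.5 CPM in the Plg WT libraries. Plg KO 3 was the lowest library and Plg KO 2 the highest, so the groups overlapped, and the 95% interval of the log2 difference was -0.23 to 0.28. The pseudogene Pcna-ps2 had 52 to 109 counts per library and may share reads with Pcna. Rfc5, a subunit of the clamp loader, had 14.7, 16.0 and 15.3 CPM in the Plg KO libraries and 12.2, 10.5 and 10.8 CPM in the Plg WT libraries. Its groups did not overlap, with a difference of 0.46 ± 0.12 (edgeR adjusted p = 0.234). Rfc4 had 20.9, 25.7 and 22.6 CPM in the Plg KO libraries and 19.8, 18.5 and 21.8 CPM in the Plg WT libraries, with overlapping groups and a difference of 0.20 ± 0.12, which was 0.12 without Plg KO 2. The other loader subunits had differences of 0.12 ± 0.14 (Rfc3) and 0.05 ± 0.09 (Rfc2). Opposite-strand exons overlap 15.1% of the exonic bases of Rfc2 (by Lat2), 12.7% of Rfc4 (by Eif4a2) and 10.7% of Rfc5 (by Wsb2). The counts of these 3 loader genes may hold such reads.

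Among genes that join and repair new strands, Lig1, the ligase of Okazaki fragments, had 27.8, 26.2 and 21.2 CPM in the Plg KO libraries and 16.8, 20.8 and 17.8 CPM in the Plg WT libraries. The lowest Plg KO library was just above the highest Plg WT library, and the log2 difference was 0.44 ± 0.14 (edgeR adjusted p = 0.365). Exo1, an exonuclease of mismatch repair and strand resection, was low and had 2.46, 2.02 and 2.10 CPM in the Plg KO libraries and 0.846, 1.61 and 1.03 CPM in the Plg WT libraries. Its groups did not overlap, with a difference of 0.93 ± 0.30 (edgeR adjusted p = 0.371). Brca1, which acts in recombination repair, had a difference of 0.61 ± 0.48 at means of 1.61 ± 0.634 CPM in Plg KO and 1.06 ± 0.497 CPM in Plg WT. Fen1, the nuclease that trims flaps of Okazaki fragments, had 1.19, 1.48 and 0.784 CPM in the Plg KO libraries and 0.628, 0.893 and 1.03 CPM in the Plg WT libraries, with overlapping groups and a difference of 0.43 ± 0.35, which was 0.22 without Plg KO 2 and 0.25 without Plg WT 1. Its value is uncertain, because the antisense gene Gm10143 covers 78.8% of its exonic bases and the library kit does not mark strand.

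The G1/S regulators had both signs. E2f2, an activating E2F factor, had 12.2, 8.62 and 9.69 CPM in the Plg KO libraries and 7.70, 7.21 and 6.15 CPM in the Plg WT libraries. All Plg KO libraries lay above all Plg WT libraries, highest in Plg KO 1, and the log2 difference was 0.54 ± 0.17 (edgeR adjusted p = 0.375). E2f1, another activator, had a difference of 0.11 ± 0.23, and the repressor E2f8 one of -0.14 ± 0.14. Ccne2, an E-type cyclin, had 14.5, 13.3 and 11.5 CPM in the Plg KO libraries and 12.3, 17.7 and 19.9 CPM in the Plg WT libraries. Its values overlapped, lowest in Plg KO 3 and highest in Plg WT 3, and its log2 difference was -0.34 ± 0.19 (edgeR adjusted p = 0.663). It was -0.52 without Plg WT 1 and -0.19 without Plg WT 3. Exons of Ints8 on the opposite strand overlap 17.4% of the exonic bases of Ccne2, so its counts may hold reads of Ints8. Ccne1, the other E-type cyclin, had -0.18 ± 0.36, with means of 3.05 ± 0.914 CPM in Plg KO and 3.45 ± 1.51 CPM in Plg WT.

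Levels between genes were compared per kilobase of exonic sequence. In Plg KO, Rrm2 had the highest level of the 45, at 24.4 ± 5.03 CPM per kilobase in Plg KO and 12.5 ± 3.09 in Plg WT, where it was the sixth. Gmnn had 18.5 ± 1.59 CPM per kilobase in Plg KO and 14.1 ± 0.558 in Plg WT, the highest level in Plg WT. Brca1 had the lowest in both groups, at 0.189 ± 0.0743 CPM per kilobase in Plg KO and 0.124 ± 0.0583 in Plg WT. Asf1b stood at 6.80 ± 0.726 CPM per kilobase in Plg KO and 3.26 ± 0.216 in Plg WT, which was rank 11 of the 45 in Plg KO and rank 19 in Plg WT. Of the 6 helicase subunits, which assemble in equal numbers, Mcm2 had the lowest level in every library, at 1.84 ± 0.415 CPM per kilobase in Plg KO and 1.85 ± 0.0603 in Plg WT. Mcm7 was the highest in 5 of 6 libraries, at 7.11 ± 1.03 CPM per kilobase in Plg KO and 7.18 ± 0.587 in Plg WT. The ratio of the highest to the lowest of the 6 subunits was 3.23 to 4.55 in the Plg KO libraries and 3.54 to 4.12 in the Plg WT libraries. Exonic length counts every annotated exon of a gene, which lowers the level of genes with long rare exons.

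**Figure D3:**
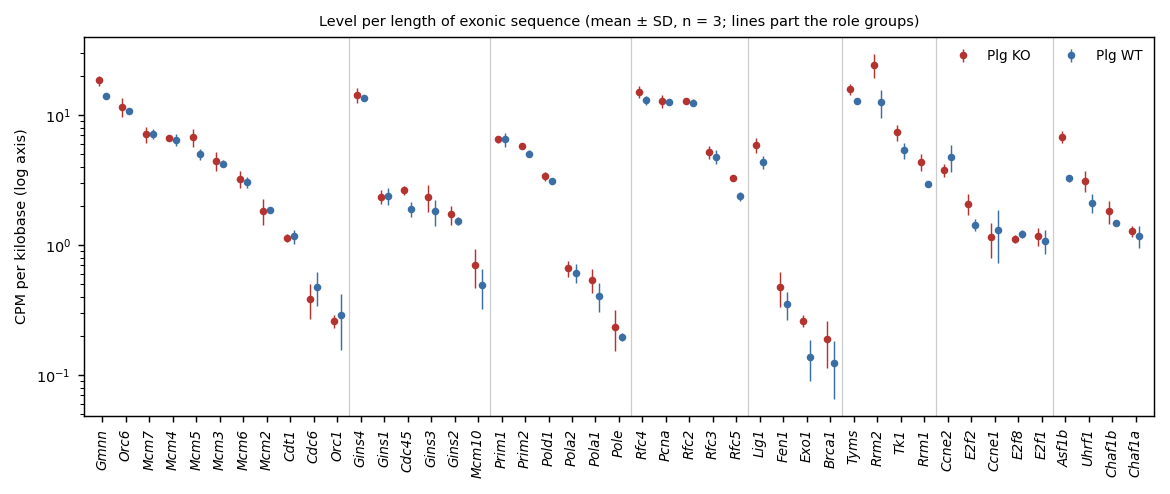
Level of each member in CPM per kilobase of exonic sequence (log axis, mean and SD of 3 libraries) in Plg KO and Plg WT, ordered within role groups by the Plg WT level. Rrm2 stands at 24.4 in Plg KO and 12.5 in Plg WT, and Brca1 is the lowest in both.

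Libraries differed within groups. On log2(CPM + 0.5) centred over the 6 libraries, the median of the 45 members was 0.15, 0.24 and -0.03 in Plg KO 1, 2 and 3, against -0.19, -0.04 and -0.01 in Plg WT 1, 2 and 3. Plg KO 3 thus lay below the other Plg KO libraries and between Plg WT 2 and Plg WT 3. Plg KO 1 held the highest value of 17 members and Plg KO 2 of 16, whereas Plg WT 1 held the lowest value of 21. For nucleotide supply the medians were 0.33, 0.40 and 0.04 in Plg KO, against -0.34, -0.14 and -0.26 in Plg WT. For licensing they were 0.05, 0.07 and -0.09 in Plg KO, against -0.13, -0.03 and 0.06 in Plg WT. Without Plg KO 1 or without Plg KO 2, the number of members higher at an unadjusted p under 0.05 was 8 instead of 13. It was also 8 in the 4 libraries with Xist. Of all genes, these fits had 4.95%, 3.45% and 3.93% higher on this rule, against 4.97% with all libraries. The median log2 change of the 45 was 0.12 without Plg KO 2 and 0.27 without Plg WT 3, against 0.17 with all libraries.

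**Figure D4:**
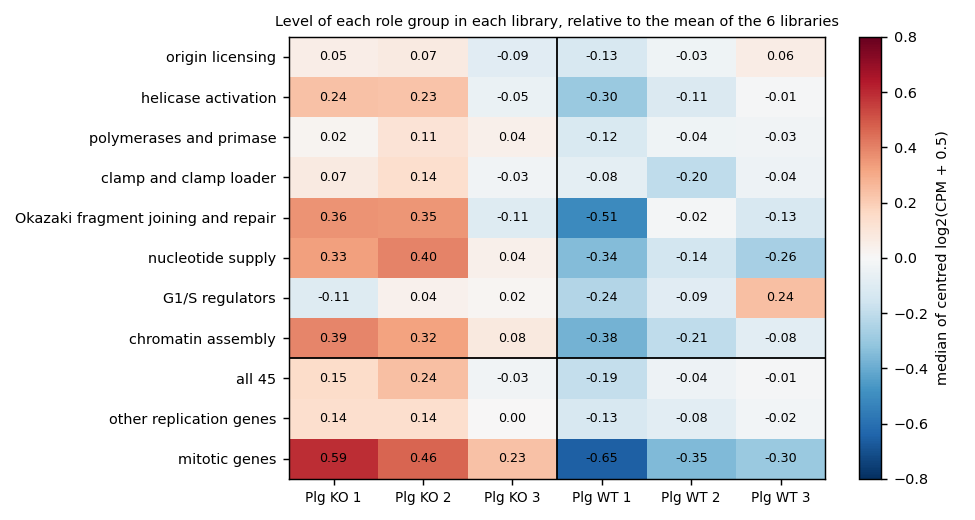
Median level of each role group and list (rows) in each library (columns), as log2(CPM + 0.5) minus the mean of the 6 libraries, written in each cell and coloured from blue (low) to red (high). Of the role groups, nucleotide supply, chromatin assembly and polymerases with primase are positive in all Plg KO libraries and negative in all Plg WT libraries, and licensing has both signs in each group.

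A further 59 genes of replication, with other subunits of the same complexes, fork protection, recombination and nucleotide supply, were all tested. By edgeR 0 were called. At an unadjusted p under 0.05 there were 11 above (18.6%), against 4.97% of all genes. Below there was 1, the folate enzyme gene Shmt1, against 4.27% of all genes. DESeq2 called 3 higher and limma-voom 0. Their median log2 change was 0.15, and 47 of 59 were positive (79.7%), against 49.2% of all genes. Among those with the smallest p-values were Pclaf, a Pcna-binding factor, and Rad54l, a recombination gene. Pclaf had 27.3, 22.7 and 18.9 CPM in the Plg KO libraries and 10.5, 12.2 and 11.1 CPM in the Plg WT libraries, with a difference of 1.03 ± 0.16 (edgeR adjusted p = 0.0691). Rad54l had a difference of 0.89 ± 0.20. Of the 10 other subunits of polymerases, the clamp loader and replication protein A, 0 had an unadjusted p under 0.05 in edgeR's test, and their median was 0.09. Of 12 genes of fork protection and the checkpoint, 5 were higher at an unadjusted p under 0.05, and the median was 0.32. In 8 of these 12 all Plg KO libraries lay above all Plg WT libraries, against 7.51% of all genes. For the 6 other genes of nucleotide supply the median was 0.12, with 0 higher and 1 lower, Shmt1, at an unadjusted p under 0.05. Of 7 genes of chromatin and methylation 1 was higher on that rule (median 0.13), and of 15 origin and helicase genes 3 were (median 0.08). For 9 genes of recombination and mismatch repair the median was 0.60, with 2 higher at an unadjusted p under 0.05.

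Genes that act before S phase were counted in the same way. Of 25 G1 cyclins, kinases, inhibitors and E2F or pocket proteins, 24 were tested, and Cdkn2a, at 0 to 6 counts per library, was not. edgeR called 0 of 24. At an unadjusted p under 0.05, 2 were above (8.33%), against 4.97% of all genes, and 1 was below, against 4.27%. DESeq2 called 1 and limma-voom 0, and the median was -0.03. The smallest p was that of Cdkn2d, an inhibitor of the G1 kinases, which had 54.7, 54.6 and 52.9 CPM in the Plg KO libraries and 33.1, 36.3 and 37.7 CPM in the Plg WT libraries. These groups did not overlap, and the log2 difference was 0.60 ± 0.09 (edgeR adjusted p = 0.0587). The related inhibitor Cdkn2b had a difference of 0.31 ± 0.10, and the cyclin Ccnd2 had -0.70 ± 0.27.

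Genes of mitosis and its approach were set beside the replication genes. The cyclin of Ccna2 is known to act in S phase as well. Of 25, 24 were higher at an unadjusted p under 0.05, against 4.97% of all genes, and 25 of 25 were positive, against 49.2%. The median log2 change was 0.84, with a range of 0.59 to 1.25. edgeR called 2 of them higher, against 0.191% of all genes. They were the survivin gene Birc5 (2.07-fold higher, edgeR adjusted p = 0.0107) and the cyclin gene Ccna2 (2.38-fold higher, edgeR adjusted p = 0.0198). DESeq2, which called 403 of 17757 genes in all, called 23 of the mitotic genes, and limma-voom called 2. edgeR called 0 without Plg KO 2, Plg KO 3, Plg WT 2 or Plg WT 3 and 4 without Plg WT 1. Among the 45 replication genes the upper quartile was 0.44, and 3 of them, Asf1b, Rrm2 and Exo1, lay above the lower quartile of the mitotic genes (0.78). The difference between the lists was not tested, and both lists were chosen with earlier results of these data known. The per-library medians of the mitotic genes were 0.59, 0.46 and 0.23 in Plg KO, against -0.65, -0.35 and -0.30 in Plg WT, so that Plg KO 3 was again the lowest of its group and Plg WT 1 the lowest of all.

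**Figure D5:**
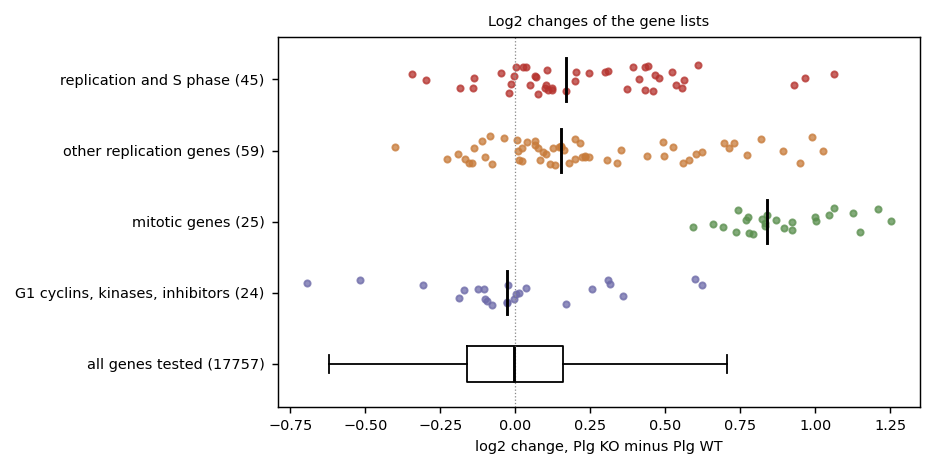
Log2 changes (x axis, Plg KO minus Plg WT) of single genes in 4 lists, with a line at each median, and of all 17757 genes tested as a box of quartiles with whiskers at the 5th and 95th percentiles. The replication genes have a median of 0.17 and overlap the box of all genes, whereas the 25 mitotic genes lie at 0.59 or above.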

How the data were processed

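RNA was measured as counts per gene in 6 libraries. Libraries came from the unstranded Nextera XT kit and were read on a NextSeq500 as 37 bp pairs, per the labels' protocols. The submitters' processing notes name STAR 2.5.2a, edgeR, limma and DESeq2 and the builds GRCm38.p3 and mm10. How reads were counted, and how shared reads were treated, is not given in these sources. Reads in exons that overlap those of another gene may thus have been counted for a member or left out.

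The raw counts were used as deposited, without 22 entries that name no gene (at most 3.55e-05% of a library). The CPM table deposited by the authors, TMM-scaled, gave gene names for 21658 genes. Its steps gave whole reads for 100% of values (tolerance 0.01 read), equal to the raw counts, and the count test on them called 42 genes. Other names, positions and exonic lengths came from GENCODE release M21 (GRCm38).

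The test was edgeR 4.0.16 (R 4.3.3): quasi-likelihood F test, TMM, filterByExpr (17757 genes), genotype as the sole term, Benjamini-Hochberg adjustment, and calls at an adjusted p under 0.05. CPM values are TMM-normalized. Each SE is the log2 change over the root of its F value. DESeq2 1.42.0 and limma 3.58.1 were alternatives. Counts were also simulated for the Plg KO and Plg WT libraries (17408 genes tested). There edgeR called 40 of 94 genes given a 2-fold change, 82 of 94 given a 4-fold change and 8 of 17220 given none. On the same counts DESeq2 called 58, 85 and 40, and limma-voom 40, 79 and 7. DESeq2 thus called more of the unchanged genes than edgeR, which limits the weight of calls by DESeq2 alone. No library was a copy of another, since the chi-square per degree of freedom between them was 21.4 to 111.4. Counting limits cover counting error only, since reads carry no molecular identifiers.

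All 45 members are accounted for. Values in every library are given for called members and, per role group, the 2 with the smallest p and the one with the lowest log2 change. From other lists, called genes and otherwise the 3 with the smallest p were named, except 1 that is not reported here. Shmt1 and the TTTGAA members were named after their values were seen. Members and lists were chosen with earlier results of these data known.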

Additional observations from a re-analysis of the deposited data

How the results depend on the processing

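Alternatives were DESeq2, voom, limma-trend with 0.5 or 1 added to the deposited CPM, RLE and upper-quartile factors, 2 other filters, a term for sex, thinning to the smallest library, reads recovered from CPM, a replicate block and leaving out each library. The 4 libraries with Xist alone were added after seeing the data. Each fit without 1 library leaves a group of 2. Genes called higher and lower, 34 and 8, were 275 and 128 by DESeq2, 122 and 40 without a filter, 54 and 11 with the sex term, 41 and 13 by limma-trend (plus 0.5), 5 and 2 in the 4 libraries with Xist, and 1 to 184 and 1 to 35 when 1 library was left out. Members called higher, 1 (Asf1b), were 3 by DESeq2, 2 without a filter, 0 in the 4 libraries with Xist and 0 to 1 when 1 library was left out. Members higher at an unadjusted p under 0.05, 13, were 8 in the 4 libraries with Xist and 8 to 14 when 1 library was left out. Of all genes, 3.93% were higher on this rule in the 4 libraries with Xist and 3.45% to 8.62% when 1 library was left out. On the same rule 1 member was lower without Plg WT 1. Other replication genes called were 3 by DESeq2 and 1 without a filter. G1 genes called were 1 by DESeq2, without a filter and at 1 CPM or more in 3 libraries, and 0 to 1 when 1 library was left out. Mitotic genes called, 2, were 23 by DESeq2, 16 without a filter, 9 with the sex term and 0 in the 4 libraries with Xist. The cause was not tested. The 3 list medians stayed positive in all 19 alternatives, and that of the members ran from 0.119 to 0.267 when 1 library was left out and was 0.265 in the 4 libraries with Xist. Asf1b was called in 12 of 19 (edgeR adjusted p = 0.264 with the block and 0.218 in the 4 libraries with Xist), and its log2 change ran from 0.97 to 1.15. Of the 19, the fit on reads recovered from CPM repeats the main fit, since these reads equal the raw counts.

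Deviations of same-numbered libraries from their group means had correlations across genes of -0.255, -0.013 and -0.225 for numbers 1, 2 and 3. With 3 libraries per group, these values cannot decide whether the numbers mark a pairing. With the replicate block, 2 genes were called higher and 0 lower, and 0 members and 0 mitotic genes were called. In that fit 11 members were higher at an unadjusted p under 0.05, against 3.59% of all genes.

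In the 4 libraries with Xist, log2 differences were -0.51 for Cdc6, 0.64 for Pola1, 0.33 for Rfc4, 0.29 for E2f2 and 0.32 for Chaf1a. Differences near 0 changed sign. When 1 library was left out, Gins1 ran from -0.126 to 0.10, Prim1 from -0.096 to 0.077, Pcna from -0.039 to 0.115 and Chaf1a from -0.017 to 0.267. Gins1 was 0.048, 0.004 and 0.10 without Plg KO 1, Plg KO 3 or Plg WT 2 and 0.04 in the 4 libraries with Xist. Prim1 was -0.002 by DESeq2, -0.003 with RLE and -0.021 with upper-quartile factors, and -0.05 and -0.096 without Plg KO 2 or Plg WT 1. Pcna was -0.009 and -0.039 without Plg KO 1 or 2 and -0.026 in the 4 libraries with Xist. Chaf1a was -0.017 without Plg WT 1.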
